A study of Mus musculus with 15 samples.

Results

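SLC25 carriers move nucleotides, phosphate, amino acids, carboxylates, cofactors and metals across the inner mitochondrial membrane, which small charged metabolites do not cross on their own. Their transcripts were counted in mouse small intestinal organoids that overexpressed the transcription factor SOX9 and in control organoids. The genes were taken by symbol, as every listed row named Slc25a followed only by a number. This gave 47 of the 78298 genes in the count tables. Of these, 41 had enough reads to be tested among 17560 genes. The other 6 were barely read in any library, with total reads over all 15 libraries of 101 for Slc25a18, a mitochondrial glutamate carrier, 29 for Slc25a2, 7 for Slc25a41, 3 for Slc25a31, 2 for Slc25a21 and 1 for Slc25a54.

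Most family members share a fold of repeated modules and work by exchanging a solute on the matrix side for another on the outside. ADP/ATP carriers release the ATP made by oxidative phosphorylation, the aspartate/glutamate carriers drive the malate-aspartate shuttle, the citrate carrier feeds cytosolic acetyl-CoA, and the ornithine carrier links the cytosolic and matrix steps of the urea cycle. In the small intestine, absorptive enterocytes are rich in mitochondria and use several of these routes to make ornithine, citrulline and proline.

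Poly-A RNA from 15 libraries was sequenced, 3 for each of 5 conditions, all from stable organoid lines made by lentiviral transduction and antibiotic selection of organoids from female mice on a C57BL/6J background, 8 to 16 weeks of age, and harvested 5 days after seeding. Every transgene was driven by the L30 promoter and linked through an IRES to a resistance gene. Halo-NLS, the control, carried a V5-tagged HaloTag with a nuclear localisation signal and puromycin resistance. SOX9-Halo_budding and SOX9-mEGFP_budding carried SOX9 fused to HaloTag or to mEGFP, with puromycin resistance, and still formed buds. SOX9-Halo_spheroid and SOX9-mEGFP_spheroid were later passages of those lines with a spherical shape, and carried a further transgene, histone H2B fused to mEGFP with zeocin resistance in the former and H2B fused to mScarletI with neomycin resistance in the latter. Shape, passage and the added H2B transgene therefore cannot be told apart, and the study orders the lines by passage with Halo-NLS first, so passage and transgene cannot be told apart there either. The study calls the replicates biological, but each condition was a single stable line, so the p-values measure the spread between these samples and not between lines or mice.

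Reads on genes ranged from 28062722 to 40559766 per library. Sox9, whose transgene reads fall on the endogenous gene, had 305 to 769 normalised counts in Halo-NLS and 1336 to 23654 in the 12 SOX9 libraries. Epithelial markers (Epcam, Cdh1, Krt8, Krt18 and Krt19) summed to between 4259 and 10690 CPM (reads scaled to a common effective library size) in every library, and fibroblast, immune and endothelial lists to at most 5.42 CPM. Markers of absorptive enterocytes, 8 genes, summed to 6572 to 10900 CPM in Halo-NLS, 4325 to 8293 in SOX9-Halo_budding, 1949 to 7452 in SOX9-mEGFP_budding, 980.1 to 1353 in SOX9-mEGFP_spheroid and 102 to 141 in SOX9-Halo_spheroid. In such bulk libraries fewer cells of a type and less RNA per cell cannot be told apart. Halo-NLS replicates 2 and 3 stood apart from the rest by GC content. Their genes of the lowest GC content (bottom quintile of transcripts) were shifted against those of the highest (top quintile) by -1.63 and -1.57 on the log2 scale, while the other libraries lay between -0.559 and 0.769. By transcript length all Halo-NLS libraries stood apart, replicate 1 included. Their longest genes (top quintile) were shifted against their shortest (bottom quintile) by -0.432, -0.756 and -1.65, and those of the other libraries by -0.0104 to 0.724. Comparisons with Halo-NLS are therefore given after those within a line. They are given with and without Halo-NLS replicates 2 and 3 and these trends.

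A normalised count is a read count divided by the library's effective size (TMM) and scaled to the mean library. A gene was called when edgeR's quasi-likelihood test over all 17560 genes gave a Benjamini-Hochberg adjusted p of at most 0.01, a change of at least 2-fold and a mean normalised count of at least 10. Values after a plus-minus sign on a log2 fold change are standard errors.

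The family took 0.415% to 0.542% of gene reads in each library. Its summed level was 5651 to 6366 CPM in Halo-NLS and 4001 to 5119 CPM in the other 4 conditions, whose ranges overlapped each other and lay below that of Halo-NLS. The size of that gap depends on the scaling, with TMM factors of 0.85 to 0.88 in Halo-NLS and 0.94 to 1.15 elsewhere. As an unscaled share of gene reads, Halo-NLS had 0.498% to 0.542% and the other conditions at most 0.483%. Per length of transcript, Slc25a5, the broadly expressed ADP/ATP carrier ANT2, was the most abundant member with 913 CPM per kb on average over the libraries. Slc25a1, the citrate carrier, followed with 325 CPM per kb, and Slc25a3, the phosphate carrier, with 302 CPM per kb. The 2-oxoglutarate/malate carrier Slc25a11 (106 CPM per kb), the glutathione carrier Slc25a39 (105), the ADP/ATP carrier ANT1, Slc25a4 (83.2), the dicarboxylate carrier Slc25a10 (55.5), the ornithine carrier Slc25a15 (48.5), the peroxisomal carrier Slc25a17 (42.6) and the carnitine/acylcarnitine carrier Slc25a20 (36.2) completed the 10 most abundant. Slc25a5, Slc25a3 and Slc25a1 together held 58.7% to 64.5% of the family's CPM in Halo-NLS, 55.6% to 57.2% in the budding organoids, 52.5% to 54.2% in SOX9-mEGFP_spheroid and 48.9% to 50.3% in SOX9-Halo_spheroid.

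The change from budding organoid to spheroid was compared within each line. In SOX9-Halo, 3 of the 41 tested carriers rose (Slc25a4, Slc25a30 and Slc25a48) and 5 fell (Slc25a1, Slc25a15, Slc25a20, Slc25a34 and Slc25a44), beside 10.5% of all tested genes called higher and 14.7% called lower. In SOX9-mEGFP, 4 rose (Slc25a30, Slc25a43, Slc25a47 and Slc25a48) and 4 fell (Slc25a15, Slc25a28, Slc25a34 and Slc25a42), beside 8.55% of all tested genes higher and 7.88% lower. The share of carriers called, 19.5% in each line, was thus near that of all genes. The median carrier changed by -0.14 in SOX9-Halo and -0.01 in SOX9-mEGFP on the log2 scale, against -0.08 and -0.04 over all genes. The ranges of the 3 libraries did not overlap for 25 of 41 carriers in SOX9-Halo, where 52.8% of all tested genes did not overlap, and for 21 of 41 in SOX9-mEGFP, where 46.0% did not. These comparisons share no library. Across the 41 carriers their log2 fold changes had a Pearson correlation of 0.61 and the same sign in 27, or 65.9%, while over all tested genes the correlation was 0.71 and the sign was shared by 70.6%.

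**Figure D1:**
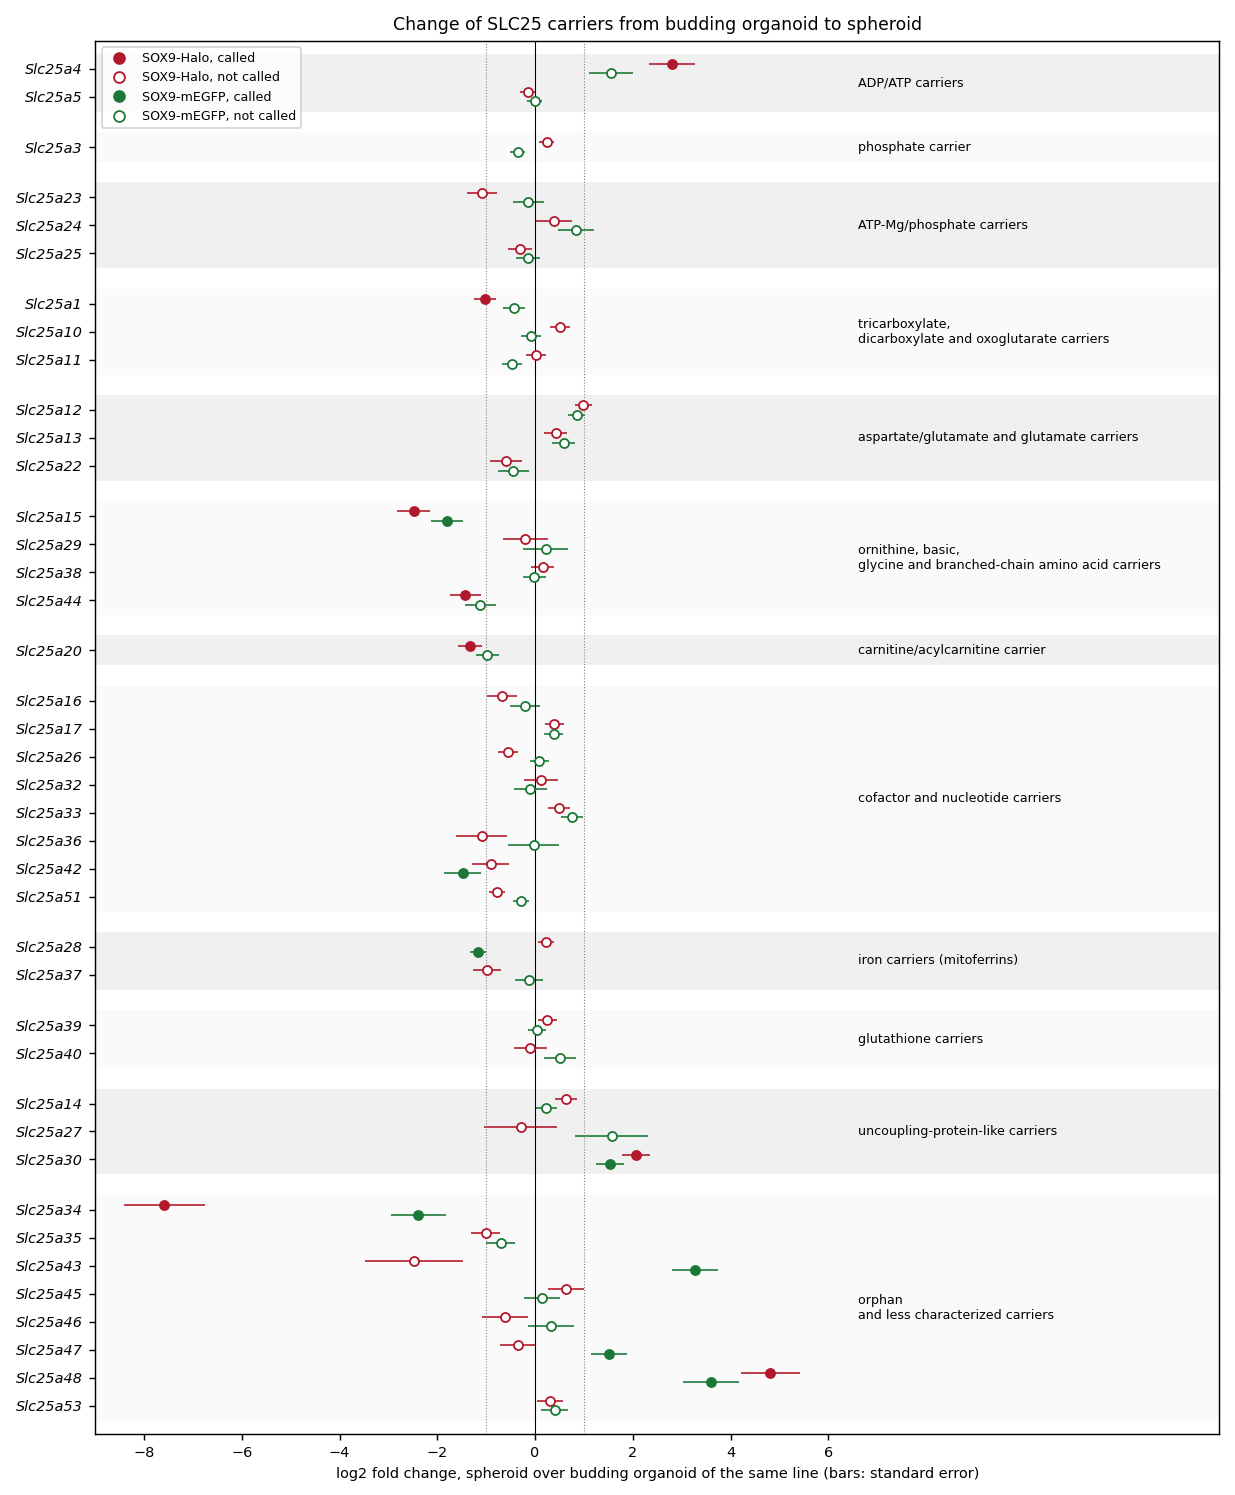
Log2 fold change of spheroid over budding organoid (x axis) for the tested carriers but 1 that was not called (rows, grouped by role), with SOX9-Halo in red and SOX9-mEGFP in green; filled points were called, bars are standard errors, and dotted lines mark a 2-fold change. Slc25a48 and Slc25a30 lie to the right and Slc25a15 and Slc25a34 to the left in both lines, Slc25a43 and Slc25a47 are filled in SOX9-mEGFP alone, and most other carriers lie between the dotted lines; values for Slc25a34 and Slc25a43, which had 3 reads or fewer in each SOX9-Halo_spheroid library, depend on the prior count of the fit.

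In both lines 4 carriers changed the same way, and also against Halo-NLS. Slc25a48 (ENSMUSG00000021509), a carrier linked to choline import into mitochondria, had 43.8, 73.0 and 332 normalised counts in SOX9-Halo_budding and 3822, 4592 and 4175 in SOX9-Halo_spheroid. In SOX9-mEGFP it had 271, 235 and 462 in budding organoids and 3147, 3682 and 4863 in spheroids, and in Halo-NLS 39.2, 45.9 and 65.4. All 6 spheroid libraries thus lay above all 9 others, and the spheroids of the lines overlapped. SOX9-mEGFP_budding also lay wholly above Halo-NLS, while SOX9-Halo_budding overlapped it. That difference of SOX9-mEGFP_budding from Halo-NLS was not called as fitted. It was called with DESeq2, the replicate block, library sizes alone, no low-count filter, the GC trend removed, and GC and length trends removed. The log2 fold change was 4.82 ± 0.61 in SOX9-Halo (edgeR adjusted p = 1.25e-05) and 3.59 ± 0.57 in SOX9-mEGFP (adjusted p = 0.000212). It was 6.38 ± 0.66 and 6.28 ± 0.66 against Halo-NLS. The spheroids of SOX9-Halo and SOX9-mEGFP differed by 0.11 ± 0.51 (adjusted p = 0.911). The gene lies at chr13:56585568-56622052 (GRCm39), plus strand.

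Slc25a30 (ENSMUSG00000022003, chr14:75997556-76024490), the uncoupling-protein-like carrier KMCP1, had 325, 334 and 478 normalised counts in SOX9-Halo_budding and 2117, 1329 and 1321 in SOX9-Halo_spheroid. It had 341, 325 and 376 in SOX9-mEGFP_budding, 853, 1169.5 and 984 in SOX9-mEGFP_spheroid and 369.9, 319 and 172 in Halo-NLS. Budding and control libraries overlapped, and every spheroid library lay above them. The log2 fold change was 2.07 ± 0.29 in SOX9-Halo (edgeR adjusted p = 3.96e-05) and 1.53 ± 0.29 in SOX9-mEGFP (adjusted p = 0.000897).

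Slc25a15 (ENSMUSG00000031482, chr8:22865516-22889423), which exchanges ornithine for citrulline, fell. It had 8952, 8789 and 6364 normalised counts in SOX9-Halo_budding and 1444, 1554 and 1309.9 in SOX9-Halo_spheroid. It had 11004, 9109.8 and 5139.8 in SOX9-mEGFP_budding, 3143, 2367 and 1702 in SOX9-mEGFP_spheroid and 10534, 8903 and 4733 in Halo-NLS. The spheroids were lower than every other library, and those of SOX9-Halo lower than those of SOX9-mEGFP without overlap. The log2 fold change was -2.48 ± 0.34 in SOX9-Halo (edgeR adjusted p = 2.55e-05) and -1.81 ± 0.33 in SOX9-mEGFP (adjusted p = 0.000647), and the lines' spheroids differed by -0.74 ± 0.32, which was not called (adjusted p = 0.112).

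Slc25a34 (ENSMUSG00000040740, chr4:141346130-141351151), an orphan carrier, fell in both lines, to a few reads in SOX9-Halo_spheroid. It had 893, 1051 and 705 normalised counts in Halo-NLS, 383, 521 and 119 in SOX9-Halo_budding and 583, 521 and 143 in SOX9-mEGFP_budding. In SOX9-mEGFP_spheroid 122, 68.1 and 47.6 were left, and in SOX9-Halo_spheroid 1.18, 0.946 and 2.70. No SOX9-Halo_spheroid library had more than 3 reads of it. Set against a floor of 3 reads per library, SOX9-Halo_spheroid was at least 112-fold below the mean of SOX9-Halo_budding (edgeR adjusted p = 2.77e-06). It was at least 26.1-fold below the mean of SOX9-mEGFP_spheroid (adjusted p = 0.000152). Against the lowest library of either group the bound is smaller. In SOX9-mEGFP the log2 fold change was -2.39 ± 0.56 (adjusted p = 0.00432). That call did not hold without budding replicate 1 or 2 or without spheroid replicate 2 or 3, with values from -2.86 to -2.07 and an adjusted p of up to 0.0252. Over the same samples the markers of absorptive enterocytes fell as given above, by a median of -10.20 on the log2 scale in SOX9-Halo and -3.67 in SOX9-mEGFP; their part in the falls of Slc25a15 and Slc25a34 was not tested.

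The promoters of the carriers were read from RefSeq (mouse GRCm38.p6), which listed 36 of the 47, and were placed on GRCm39 by exact match. The stretch upstream of a riser and of a faller is shown, since both genes moved the same way in both lines and against Halo-NLS, and their RefSeq window reaches 13 and 6 bases into the annotated gene, which were left out. The Slc25a30 sequence is chr14:76024491-76024727, minus strand, and the Slc25a34 sequence chr4:141351152-141351395, minus strand; both end at the annotated start and so hold no transcribed base. Capitals mark the letters AAGGTCA, a core bound by many nuclear receptors, which stand here on the opposite strand.
Slc25a30: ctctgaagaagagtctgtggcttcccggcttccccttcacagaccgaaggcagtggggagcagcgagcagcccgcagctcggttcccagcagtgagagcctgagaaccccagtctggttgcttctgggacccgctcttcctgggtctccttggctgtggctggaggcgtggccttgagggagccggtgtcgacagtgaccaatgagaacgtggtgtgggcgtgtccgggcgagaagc
Slc25a34: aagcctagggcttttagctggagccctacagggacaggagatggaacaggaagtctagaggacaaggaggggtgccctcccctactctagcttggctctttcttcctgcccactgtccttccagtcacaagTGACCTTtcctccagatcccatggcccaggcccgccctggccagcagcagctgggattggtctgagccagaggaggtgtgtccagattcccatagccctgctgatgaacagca

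In the 250 bases before the RefSeq start, AAGGTCA was found in 1 of the 32 tested carriers with a listed promoter, Slc25a34, and in 4.05% of 27025 promoters of all genes. The SOX core letters AACAAT were found in 0 of 32 carriers and 9.65% of all promoters, and ACAAAG in 2 of 32 (Slc25a22 and Slc25a29) and 16.5% of all. The NRF1 palindrome, GCGCAT followed by GCGC, was in 0 of 32 and 0.781% of all. Both strands were searched, and the motifs do not contain each other. These are matches of letters in a fixed window and say nothing of binding.

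**Figure D2:**
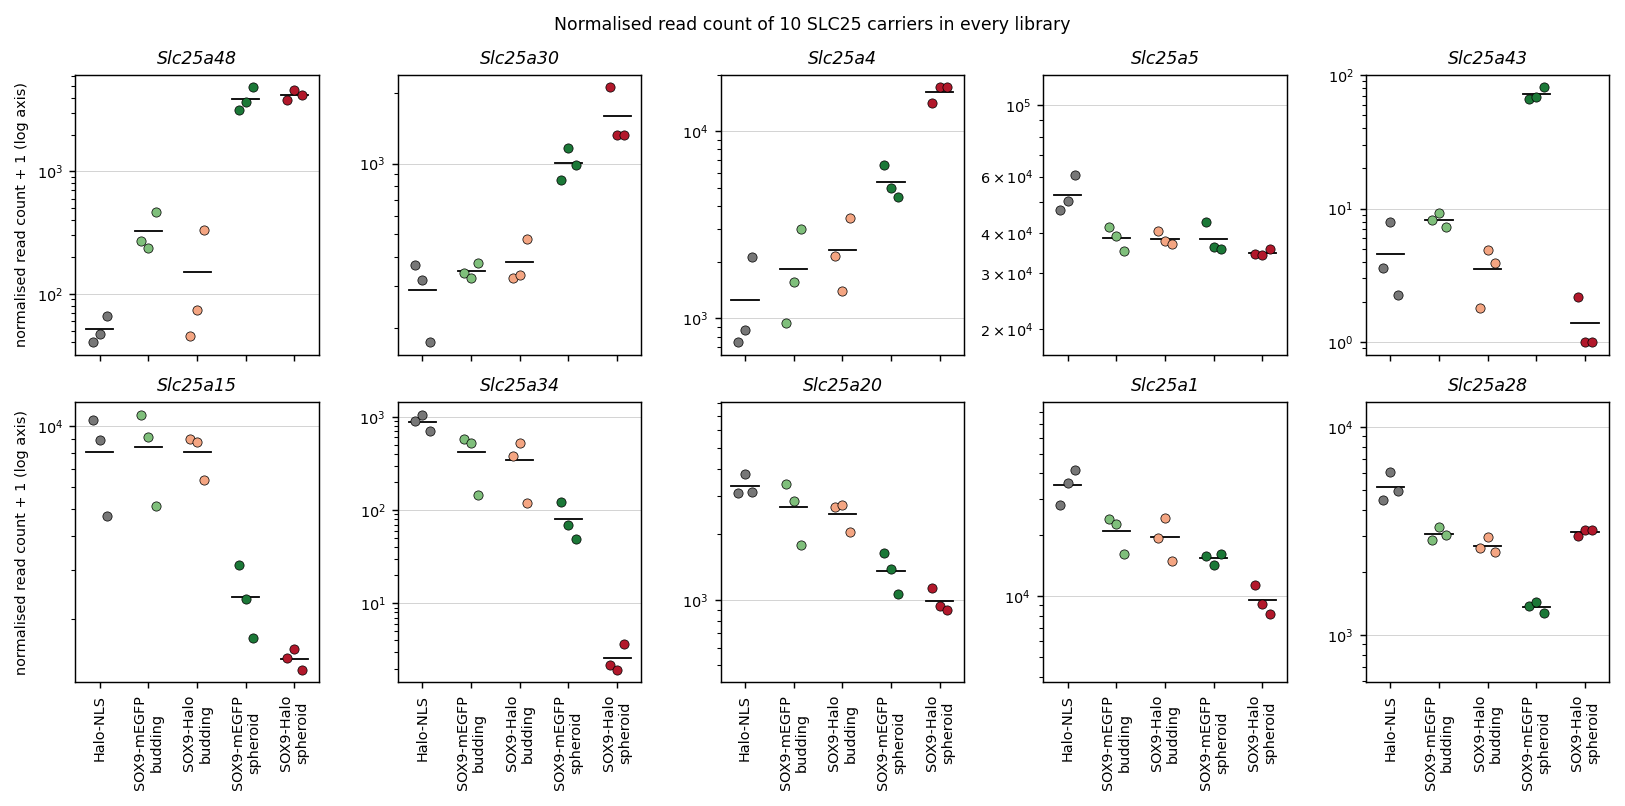
Normalised read count plus 1 (log axis) of 10 carriers in each of the 15 libraries, by condition; points are libraries and bars are means of 3. Slc25a48, Slc25a30 and Slc25a4 are higher in both spheroid groups than in any other library, Slc25a43 is high in SOX9-mEGFP_spheroid alone, Slc25a5 keeps a narrow range, and Slc25a34 drops to between 0.946 and 2.70 normalised counts in SOX9-Halo_spheroid.

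Among the ADP/ATP carriers, the muscle and heart isoform ANT1, Slc25a4, changed and the most abundant carrier ANT2, Slc25a5, was not called in any comparison. Slc25a4 (ENSMUSG00000031633, chr8:46656538-46664325) had 2142, 1401 and 3431 normalised counts in SOX9-Halo_budding and 14155, 17194 and 17202 in SOX9-Halo_spheroid. It rose by 2.80 ± 0.47 on the log2 scale (edgeR adjusted p = 0.000182). It had 945, 1565 and 2989 in SOX9-mEGFP_budding and 6647, 4987 and 4435 in SOX9-mEGFP_spheroid, a change of 1.55 ± 0.45 that was not called (adjusted p = 0.0168). Halo-NLS had 745, 871 and 2124. Every spheroid library was above every other library, and the SOX9-Halo spheroids were above the SOX9-mEGFP spheroids without overlap, although neither that difference (1.60 ± 0.45, adjusted p = 0.0168) nor the difference between the lines' changes (1.25 ± 0.62, adjusted p = 0.24) was called. With DESeq2, with the replicate block or without the low-count filter, the rise in SOX9-mEGFP (1.54 to 1.73) and the difference between the spheroids (1.54 to 1.62) were called, the latter also with only the libraries compared. The summed level of 6 skeletal and cardiac muscle markers was lowest in the same spheroids, at 1.58 to 2.44 CPM in SOX9-Halo_spheroid and 4.17 to 6.37 in SOX9-mEGFP_spheroid against 9.33 to 32.8 in the other libraries. Of the 3 of these markers that were tested, Acta1 fell in both lines (-7.46 ± 0.41 and -2.17 ± 0.30), Myh7 was not called (-7.17 ± 2.18 and -4.76 ± 1.58), and Tnnt2 was not called in SOX9-Halo (1.06 ± 0.37) and rose in SOX9-mEGFP (1.60 ± 0.36, edgeR adjusted p = 0.00359), as it did in both spheroid groups against Halo-NLS. Myh1, Myh6, Myh7 and Myog had 3 reads or fewer in every spheroid library.

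Slc25a5 had 47061, 50269.8 and 60689 normalised counts in Halo-NLS, 40539, 37699.7 and 36862 in SOX9-Halo_budding and 34391, 34240.5 and 35548 in SOX9-Halo_spheroid. In SOX9-mEGFP it had 41654, 39049 and 35169.7 in budding organoids and 43152, 36162 and 35721 in spheroids. Its change was -0.14 ± 0.16 in SOX9-Halo and -0.01 ± 0.16 in SOX9-mEGFP. Per kb of transcript, ANT1 therefore made up 1.07% to 2.34% of ANT1 plus ANT2 in Halo-NLS, 1.53% to 5.51% in SOX9-mEGFP_budding and 2.49% to 6.00% in SOX9-Halo_budding. The share was 7.85% to 9.56% in SOX9-mEGFP_spheroid and 22% to 25.6% in SOX9-Halo_spheroid, so the spheroids of each line lay above all budding and control libraries and apart from each other. Processed copies of ADP/ATP carrier genes exist in the genome, and reads that aligned to more than a single place were not counted.

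**Figure D3:**
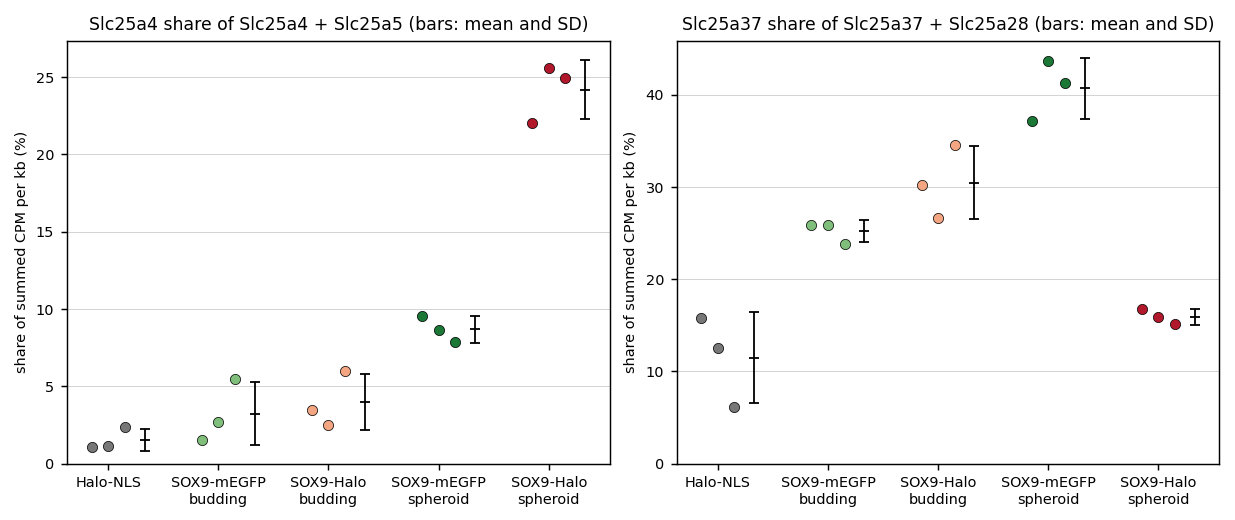
Share of a paralogue in the summed CPM per kb (y axis, percent) in each library by condition, with the mean and SD of 3 beside the points: Slc25a4 of the ADP/ATP carriers on the left and Slc25a37 of the mitoferrins on the right. On the left the SOX9-Halo_spheroid libraries reach 22% to 25.6%; on the right the SOX9-mEGFP_spheroid libraries reach 37.2% to 43.7% while SOX9-Halo_spheroid lies at 15.1% to 16.8%.

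The phosphate carrier Slc25a3, which supplies phosphate for ATP synthesis, was not called in any comparison as fitted. It had 36135, 39759.8 and 32350.2 normalised counts in Halo-NLS, 23608, 29135 and 24509 in SOX9-Halo_budding, 29749, 30796 and 30374 in SOX9-Halo_spheroid, 30530.0, 27963 and 25602 in SOX9-mEGFP_budding and 23159.9, 20653 and 21994 in SOX9-mEGFP_spheroid. Its difference was 0.24 ± 0.16 in SOX9-Halo and -0.35 ± 0.16 in SOX9-mEGFP, neither past the test. Against Halo-NLS it was -0.25 ± 0.16 in SOX9-Halo_spheroid and -0.72 ± 0.16 in SOX9-mEGFP_spheroid, and the latter went to -1.11 and was called with the GC trend removed (edgeR adjusted p = 6.55e-05). Of the calcium-regulated ATP-Mg/phosphate carriers, Slc25a23, Slc25a24 and Slc25a25 were tested and 0 of 3 were called within a line as fitted. Slc25a23 was called within SOX9-Halo with DESeq2, no low-count filter, the GC trend removed, and GC and length trends removed. Over all tested genes 10.5% were called higher and 14.7% lower within SOX9-Halo, and 8.55% and 7.88% within SOX9-mEGFP.

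Carriers of carbon skeletons and acyl groups were called lower or not called. Slc25a1, which exports citrate for lipid synthesis, had 28067, 36017 and 41336 normalised counts in Halo-NLS, 19250.3, 24065 and 14919.9 in SOX9-Halo_budding and 11261, 9131 and 8169 in SOX9-Halo_spheroid. In SOX9-mEGFP it had 23752, 22543 and 16002 in budding organoids and 15645, 14164 and 16167 in spheroids. The change within SOX9-Halo was -1.03 ± 0.23 (edgeR adjusted p = 0.00176) and was not called without budding replicate 2 or without spheroid replicate 3, with values down to -0.84. In SOX9-mEGFP it was -0.44 ± 0.22 (adjusted p = 0.174), with overlapping libraries. Of the other carboxylate carriers, Slc25a10 and Slc25a11 were not called within a line (0.52 ± 0.21 and 0.02 ± 0.21 in SOX9-Halo, -0.07 ± 0.20 and -0.47 ± 0.21 in SOX9-mEGFP).

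Slc25a20, which brings acylcarnitines into the matrix for fatty acid oxidation, had 2656, 2729 and 2042 normalised counts in SOX9-Halo_budding, 1131, 931 and 895 in SOX9-Halo_spheroid, 3388, 2853 and 1780.0 in SOX9-mEGFP_budding, 1638, 1379 and 1056 in SOX9-mEGFP_spheroid and 3105, 3772 and 3132 in Halo-NLS. The spheroid libraries were all below the budding and control libraries. Its log2 fold change was -1.33 ± 0.24 in SOX9-Halo (edgeR adjusted p = 0.00041) and -0.98 ± 0.24 in SOX9-mEGFP (adjusted p = 0.00632), the latter just short of the 2-fold threshold. With DESeq2 or with another scaling (RLE) the latter was called. Slc25a44, the carrier of branched-chain amino acids, had 3604, 5604 and 2503 in SOX9-Halo_budding, 1209, 1607 and 1547 in SOX9-Halo_spheroid, 5349, 4769 and 2476 in SOX9-mEGFP_budding, 1972, 1879 and 1941 in SOX9-mEGFP_spheroid and 4782, 8130.1 and 5769.6 in Halo-NLS. Its libraries also did not overlap between spheroids and the rest. It changed by -1.42 ± 0.32 in SOX9-Halo (adjusted p = 0.00197), a call lost without budding replicate 2 or spheroid replicate 1, where the value was between -1.64 and -1.07 over all single omissions. In SOX9-mEGFP it changed by -1.12 ± 0.31, which was not called as fitted (adjusted p = 0.014). That change was called with DESeq2, the replicate block, library sizes alone, no low-count filter, the GC trend removed, and GC and length trends removed. The part of the lower enterocyte markers in these falls was not tested.

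The aspartate/glutamate carriers had values above 0 in both lines but were not called within a line. Slc25a12 (aralar) had 1055, 1227 and 1565 normalised counts in Halo-NLS, 1732, 1891 and 1934 in SOX9-Halo_budding, 3891, 3603 and 3503 in SOX9-Halo_spheroid, 1720.1, 1536 and 1454 in SOX9-mEGFP_budding and 3103, 2603 and 2817 in SOX9-mEGFP_spheroid. Its change of 0.98 ± 0.17 in SOX9-Halo (edgeR adjusted p = 0.000296) and 0.86 ± 0.17 in SOX9-mEGFP (adjusted p = 0.00155) missed only the 2-fold threshold, and no spheroid library overlapped a budding library. Slc25a13 (citrin) had 1439, 1265 and 783 in Halo-NLS, 1574, 2059.9 and 1664 in SOX9-Halo_budding, 2849.9, 2279.7 and 1958 in SOX9-Halo_spheroid, 2614, 2378 and 1848 in SOX9-mEGFP_budding and 3592, 3486 and 3169 in SOX9-mEGFP_spheroid. Its changes within the lines were 0.42 ± 0.23 and 0.58 ± 0.23. The glutamate carrier Slc25a22 was not called within a line (-0.59 ± 0.33 and -0.44 ± 0.32).

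The lines differed at some carriers. The difference between the budding-to-spheroid changes of SOX9-Halo and SOX9-mEGFP was called higher for 1 carrier (Slc25a28) and lower for 2 (Slc25a34 and Slc25a43), beside 1.81% of all tested genes higher and 5.58% lower. Between the spheroids themselves, SOX9-Halo was higher than SOX9-mEGFP at Slc25a28 and lower at Slc25a34, Slc25a43 and Slc25a47, 1 and 3 of 41 carriers, beside 3.59% and 9.58% of all tested genes. Between the budding organoids of the lines 0 carriers were called in either direction with edgeR and 0 with DESeq2 (0 higher and 2 lower at an unadjusted edgeR p under 0.05), beside 0.29% of all tested genes higher and 0.165% lower. These shares are for the edgeR calls, and the share at the unadjusted p was not computed.

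Slc25a43, an orphan carrier on the X chromosome at chrX:36007219-36041267 (plus strand), had 64.8, 67.1 and 80.0 normalised counts in SOX9-mEGFP_spheroid. In the other conditions it stayed between 0 and 8.31, with 2.61, 6.88 and 1.26 in Halo-NLS, 7.29, 8.31 and 6.23 in SOX9-mEGFP_budding, 0.796, 3.89 and 2.93 in SOX9-Halo_budding and 1.18, 0 and 0 in SOX9-Halo_spheroid. It passed the mean threshold of 10 through SOX9-mEGFP_spheroid alone, with a mean of 3.45 over the other 4 conditions, so a tested Slc25a43 had to differ there and its calls carry no support of their own. Its rise in SOX9-mEGFP was 3.27 ± 0.47 on the log2 scale (edgeR adjusted p = 8.99e-05). SOX9-Halo_spheroid, with at most 1 read in a library, was at least 23.3-fold below the mean of SOX9-mEGFP_spheroid by the floor of 3 reads (adjusted p = 2.49e-06). Per length it was a weak carrier, at 0.453 CPM per kb on average. Slc25a5, on the same strand and with 17955 bases between them, was not called in this comparison.

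The mitoferrins bring iron into the matrix. Slc25a28 (mitoferrin 2) had 4479, 6098 and 4914 normalised counts in Halo-NLS, 2616, 2947 and 2497 in SOX9-Halo_budding, 2978, 3200.1 and 3212 in SOX9-Halo_spheroid, 2845, 3289 and 3020.4 in SOX9-mEGFP_budding and 1384, 1434 and 1278 in SOX9-mEGFP_spheroid. The SOX9-mEGFP spheroids were below all other libraries. The change was -1.16 ± 0.16 in SOX9-mEGFP (edgeR adjusted p = 7.15e-05) and 0.22 ± 0.16 in SOX9-Halo (adjusted p = 0.303). The lines' spheroids differed by 1.20 ± 0.16 (adjusted p = 6.29e-05), or 0.92 with the GC trend removed and 0.87 with GC and length trends removed, both under the 2-fold threshold. Slc25a37 (mitoferrin 1) was not called, with a change of -0.98 ± 0.29 in SOX9-Halo (adjusted p = 0.0123) and -0.13 ± 0.29 in SOX9-mEGFP. Per kb, mitoferrin 1 was 26.6% to 34.5% of both in SOX9-Halo_budding and 15.1% to 16.8% in SOX9-Halo_spheroid, but 23.9% to 25.9% in SOX9-mEGFP_budding and 37.2% to 43.7% in SOX9-mEGFP_spheroid, so the share moved in opposite directions in the lines without overlap. In Halo-NLS it was 6.13% to 15.8%, below both budding groups and overlapping SOX9-Halo_spheroid. Of the exon bases, 16.3% of Slc25a28 and 29.9% of Slc25a37 overlap genes on the other strand, and the counting ignored strand.

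Slc25a47, a carrier known mainly from liver, had 288, 332 and 389 normalised counts in SOX9-mEGFP_spheroid, above the 66.3 to 191 of all other libraries. It rose by 1.52 ± 0.36 on the log2 scale within SOX9-mEGFP (edgeR adjusted p = 0.00521), a call lost without budding replicate 1 or 2 or spheroid replicate 2 or 3 (values from 1.33 to 1.74, adjusted p up to 0.0288). Its difference between the spheroids was -1.89 ± 0.37 (adjusted p = 0.00141). Slc25a42, which carries coenzyme A, fell in SOX9-mEGFP from between 822 and 1159 in budding organoids to between 311 and 489 in spheroids, by 1.48 ± 0.38 on the log2 scale (adjusted p = 0.00826). Leaving out budding replicate 1 or 2 or any of the 3 spheroid replicates ended that call, with an adjusted p of up to 0.0399. In SOX9-Halo it changed by -0.91 ± 0.37 (adjusted p = 0.066).

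Against Halo-NLS, few carriers were called in the budding organoids. In SOX9-Halo_budding 0 carriers were called higher and 1 lower, beside 2.49% and 1.26% of all tested genes, and in SOX9-mEGFP_budding also 0 and 1, beside 1.99% and 0.763%. With DESeq2 2 were called higher and 1 lower in each line, and at an unadjusted edgeR p under 0.05 the counts were 10 higher and 12 lower in SOX9-Halo_budding and 8 and 10 in SOX9-mEGFP_budding. The shares of all tested genes just given are for the edgeR calls. No such share was computed at the unadjusted p, so those counts are not read as a result about the carriers. The ranges of the 3 libraries did not overlap Halo-NLS for 17 of 41 carriers in SOX9-Halo_budding, where 29.7% of all tested genes did not overlap, and for 19 of 41 in SOX9-mEGFP_budding, where 32.5% did not. Slc25a1, Slc25a3, Slc25a5 and the family's summed CPM lay wholly below Halo-NLS in both. The size of these gaps depends on the scaling, as given above for the family. Slc25a1 also has a GC content at the 96.3 percentile, where Halo-NLS replicates 2 and 3 read relatively high. The part of either in these gaps was not tested. The carrier called was in both cases Slc25a45, a less characterised carrier. It had 1699, 2153 and 1461 normalised counts in Halo-NLS, 566, 428 and 371 in SOX9-Halo_budding, 671, 492 and 159.6 in SOX9-mEGFP_budding, 765, 679 and 662 in SOX9-Halo_spheroid and 463, 419.6 and 579 in SOX9-mEGFP_spheroid. Every SOX9 library was thus below every Halo-NLS library, while budding organoids and spheroids of a line differed by 0.62 ± 0.37 and 0.15 ± 0.37 and were not called. The change from Halo-NLS was -1.96 ± 0.38 in SOX9-Halo_budding (edgeR adjusted p = 0.00555) and -2.01 ± 0.38 in SOX9-mEGFP_budding (adjusted p = 0.0052), comparisons that share the control libraries. Without Halo-NLS replicates 2 and 3 together these calls were lost (adjusted p = 0.122 and 0.116), and leaving out replicate 2 or 3 alone also ended them, while the values stayed between -2.14 and -1.67 and between -2.44 and -1.61 under all alternatives.

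SOX9-Halo_spheroid differed from Halo-NLS at 7 carriers called higher and 9 lower, beside 13.6% and 15.3% of all tested genes, and SOX9-mEGFP_spheroid at 13 higher and 9 lower, beside 15.3% and 12.1%. With library sizes alone as the scaling, the split was 8 higher and 5 lower in the former and 14 and 6 in the latter, and the median of all genes shifted by 0.28 and 0.29. These comparisons use the same control libraries, so their agreement is not independent. Calls were checked under 3 alternatives: the GC trend removed, GC and length trends removed, and Halo-NLS replicates 2 and 3 left out together. Of 16 calls in SOX9-Halo_spheroid and 22 in SOX9-mEGFP_spheroid, 9 and 13 held with the GC trend removed. With GC and length trends removed, 10 and 14 held. The omission leaves only Halo-NLS replicate 1 as control. A call lost there at a similar value does not show dependence on replicates 2 and 3. How many calls of all tested genes held was not counted. Calls kept in all 3 alternatives in SOX9-Halo_spheroid were Slc25a4, Slc25a30 and Slc25a48, higher, and Slc25a1, Slc25a15, Slc25a20, Slc25a34 and Slc25a44, lower. In SOX9-mEGFP_spheroid they were Slc25a4, Slc25a30, Slc25a43, Slc25a47 and Slc25a48, higher, and Slc25a15, Slc25a28 and Slc25a34, lower. Of these, Slc25a43 passed the mean threshold through SOX9-mEGFP_spheroid alone, so its being kept carries no support of its own.

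**Figure D4:**
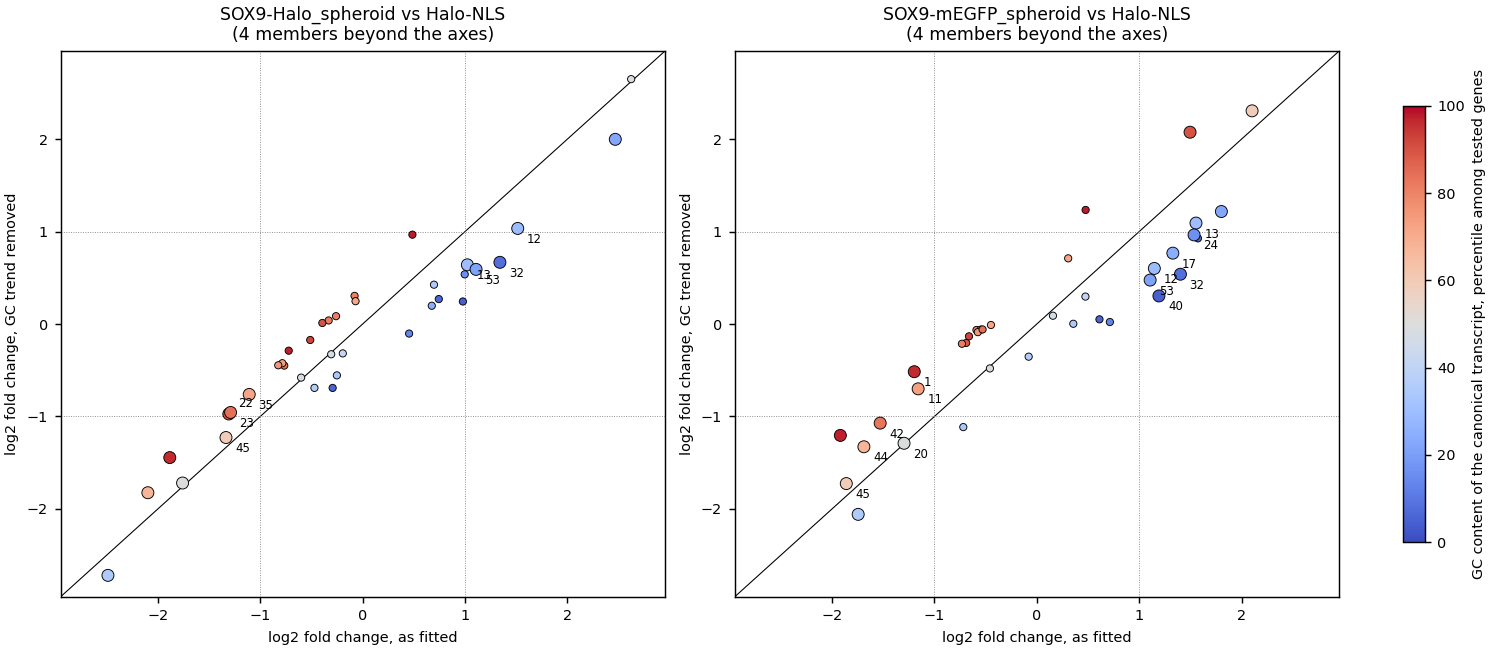
Log2 fold change of each carrier against Halo-NLS as fitted (x axis) and after the trend of each library with GC content was removed (y axis), for SOX9-Halo_spheroid (left) and SOX9-mEGFP_spheroid (right); colour is the GC percentile among tested genes, large points were called as fitted, numbers mark calls that did not hold under all 3 alternatives (12 is Slc25a12), and 4 carriers in each panel lie beyond the axes. Low-GC carriers (blue) lie below the diagonal and high-GC carriers (red) above it.

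Several calls common to both spheroid groups did not hold in this way. Slc25a32, the folate and FAD carrier, with a GC content at the 7.86 percentile of tested genes, had 463, 236 and 175 normalised counts in Halo-NLS, 597, 858 and 757 in SOX9-Halo_spheroid and 745, 822 and 742 in SOX9-mEGFP_spheroid, and 418 to 1078 in budding organoids. Its log2 fold change of 1.34 ± 0.35 and 1.40 ± 0.35 went to 0.67 and 0.54 with the GC trend removed. Slc25a53, an orphan carrier, had 36.6, 32.1 and 23.9 in Halo-NLS, 85.3, 54.9 and 60.3 in SOX9-Halo_spheroid, 61.2, 71.1 and 67.6 in SOX9-mEGFP_spheroid and 39.5 to 66.2 in budding organoids, and its changes of 1.11 in both spheroid groups went to 0.59 and 0.48. The changes of Slc25a12, 1.52 ± 0.18 and 1.15 ± 0.17, were 1.03 (still called) and 0.60 with the GC trend removed, 0.64 and 0.14 with GC and length trends removed, and 1.77 and 1.38, both still called, without Halo-NLS replicates 2 and 3. Those of Slc25a13, 1.02 ± 0.23 and 1.56 ± 0.24, were 0.64 and 1.09 with the GC trend removed and 0.62 and 1.11 with length too, the SOX9-mEGFP_spheroid values still called, and 0.69 and 1.19 without those libraries, where the latter missed the threshold (adjusted p = 0.0116). Called in SOX9-mEGFP_spheroid and not in SOX9-Halo_spheroid, and not kept, were Slc25a17 (1.33), Slc25a24 (1.54), Slc25a27 (3.90) and the glutathione carrier Slc25a40 (1.19), higher, and Slc25a11 (-1.16) and Slc25a42 (-1.53), lower. Of these, Slc25a27 was still called with the GC trend removed (3.88) and with GC and length trends removed (3.91), and had a larger value of 5.27 without Halo-NLS replicates 2 and 3, where it was not called (adjusted p = 0.0415). Called lower in SOX9-Halo_spheroid and not called in SOX9-mEGFP_spheroid, and also not kept, were Slc25a22 (-1.31), Slc25a23 (-1.29) and Slc25a35 (-1.11). Slc25a45 was called lower in both (-1.33 ± 0.37 and -1.86 ± 0.38) and lost both calls without Halo-NLS replicates 2 and 3, at nearly the same values (-1.30 and -1.85). Slc25a1, Slc25a20 and Slc25a44, called lower in SOX9-mEGFP_spheroid at -1.20, -1.30 and -1.69, lost the call there too, at -0.93, -1.25 and -1.36 (adjusted p = 0.0434, 0.0156 and 0.0337).

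Among the 41, 25 were called in at least 1 comparison and 16 in none, beside 42.7% of all tested genes called in at least 1. As fitted, called only against Halo-NLS were Slc25a11, Slc25a12, Slc25a13, Slc25a17, Slc25a22, Slc25a23, Slc25a24, Slc25a27, Slc25a32, Slc25a35, Slc25a40, Slc25a45 and Slc25a53. None of these calls held under all 3 alternatives given above. Within SOX9-Halo, where no Halo-NLS library is compared, Slc25a12, Slc25a23 and Slc25a35 were called with the GC trend removed. The latter 2 were also called there with DESeq2. Within SOX9-mEGFP, Slc25a27 was called without the low-count filter. Slc25a43 passed the mean threshold through SOX9-mEGFP_spheroid alone. The share of all tested genes was not put through the 3 alternatives. Whether carriers were called more often than all genes therefore cannot be read from these counts. Among the 16 were Slc25a3, Slc25a5, Slc25a10, Slc25a37 and Slc25a39. The highest and lowest condition means of the 16 differed by 1.47-fold (the S-adenosylmethionine carrier Slc25a26) to 2.98-fold (Slc25a46, an outer-membrane member involved in fission and fusion), with a median of 1.71-fold. By the same measure Slc25a30 spanned 5.54-fold, Slc25a15 5.86-fold, Slc25a4 13.0-fold and Slc25a48 83.7-fold. Within the cofactor and nucleotide group, which carries NAD, pyrimidine nucleotides and S-adenosylmethionine among others, 0 of 9 tested members were called in SOX9-Halo and 1 of 9, Slc25a42, in SOX9-mEGFP. Over all tested genes 10.5% were called higher and 14.7% lower within SOX9-Halo, and 8.55% and 7.88% within SOX9-mEGFP.

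Genes that work with the carriers were counted on lists of their own for the change within each line. For all the lists that follow, the shares of all tested genes called were 10.5% higher and 14.7% lower in SOX9-Halo. In SOX9-mEGFP they were 8.55% and 7.88%. Of 9 urea cycle and ornithine genes, 1 rose and 4 fell in SOX9-Halo and 1 rose and 5 fell in SOX9-mEGFP, with median changes of -4.22 and -1.81 on the log2 scale. Oat, ornithine aminotransferase, changed by -5.61 ± 0.41 and -4.19 ± 0.38 (edgeR adjusted p = 5.75e-08 and 1.3e-06). Cps1, carbamoyl phosphate synthetase, changed by -10.46 ± 0.97 and -3.60 ± 0.71. Aldh18a1, which makes the precursor of proline and ornithine, changed by -1.10 ± 0.34, not called, and -1.73 ± 0.34. The riser was Ass1, argininosuccinate synthase, named here after its values were seen, with 4.40 ± 0.38 and 4.62 ± 0.39. The ornithine carrier Slc25a15 fell in the same spheroids, as did the enterocyte markers given above, whose part in this was not tested.

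Of 10 partners of the malate-aspartate and citrate shuttles, 3 rose and 1 fell in SOX9-Halo and 1 rose and 2 fell in SOX9-mEGFP. Mdh2, mitochondrial malate dehydrogenase, changed by -0.83 ± 0.23, not called, and -1.06 ± 0.23 (edgeR adjusted p = 0.00255). Me1, cytosolic malic enzyme, rose by 1.66 ± 0.47 and 1.82 ± 0.47, and Got1, cytosolic aspartate aminotransferase, by 1.68 ± 0.18 in SOX9-Halo (adjusted p = 2.8e-06) beside -0.04 ± 0.18 in SOX9-mEGFP. Of the family's members under other symbols, 4 of 5 were tested and only Mtch2, an outer-membrane insertase, was called, at -1.27 ± 0.19 and -1.19 ± 0.19. Of 23 tested transporters of other kinds in the inner membrane, 2 rose and 2 fell in SOX9-Halo, among them Mcu, the calcium uniporter, at -1.40 ± 0.25, Sfxn3 at 3.17 ± 0.29 and Tmem65 at -1.66 ± 0.31, while 1 rose in SOX9-mEGFP. That was Slc8b1, the mitochondrial sodium/calcium exchanger, named here after its values were seen, which rose in both lines (1.46 ± 0.27 and 1.23 ± 0.27).

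Lists of other mitochondrial components held no called gene within the lines. Over all tested genes 10.5% were called higher and 14.7% lower in SOX9-Halo, and 8.55% and 7.88% in SOX9-mEGFP. Of 3 outer membrane channels (VDACs), 26 tested protein import subunits, 12 matrix and mass markers and 12 heme synthesis genes, 0 were called in either line with edgeR, while at an unadjusted p under 0.05 the counts over these 53 genes were 5 higher and 7 lower in SOX9-Halo and 2 and 14 in SOX9-mEGFP. The share of all tested genes at that unadjusted p was not computed. The medians of the lists lay between -0.35 and 0.42 in SOX9-Halo and between -0.51 and -0.22 in SOX9-mEGFP.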

How the data were processed

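Poly-A libraries were sequenced from 15 organoid samples. The authors trimmed reads with cutadapt 4.5, aligned them uniquely to mm39 with STAR and deposited HTSeq 2.0.2 counts per gene and library, made without regard to strand; their comparison tables (fold changes and p-values from DESeq2) were not used. Groups and replicate numbers came from the sample labels. Reads assigned to no feature (1.83% to 6.09%) or to several (9.65% to 13.6%) were left out. All 78298 genes were filtered by expression (17560 kept) and fitted across all genes with edgeR 4.0.16 (R 4.3.3), TMM scaling and a coefficient per condition over 15 libraries, with Benjamini-Hochberg adjustment over all tested genes. Lengths, GC contents and coordinates came from GRCm39 with GENCODE M39, per canonical transcript.

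The scripts were tested on simulated data. Alternatives were DESeq2 1.42.0, other scalings and filters, a replicate block, the compared libraries alone, omission of each library, and, added after seeing the data, removal of GC and length trends, omission of Halo-NLS replicates 2 and 3 together and no fold threshold. Same-numbered libraries deviated together most evenly between SOX9-Halo_budding and SOX9-Halo_spheroid (correlations of 0.403, 0.234 and 0.344), where the blocked fit called the same 8 carriers. Between other conditions the lowest of the 3 correlations was at most 0.0717, but some numbers still went together. These were 0.47, 0.817 and -0.0545 for Halo-NLS and SOX9-Halo_budding, and 0.0402, 0.358 and 0.74 for the budding organoids of the lines. Members, roles and lists were chosen with earlier results of these data known. Carriers were named when called in any comparison or among the 10 most abundant per kb, with all library values for those called alike in both spheroid groups against Halo-NLS, called in the interaction or among the 3 most abundant, and at most 3 genes per partner list, by mean count. The planned comparison of protein sequences was not run. Single-gene values of 1 tested carrier are not reported here.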

Additional observations from a re-analysis of the deposited data

Results flagged for a closer look

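The budding-to-spheroid change differed between the SOX9-Halo and SOX9-mEGFP lines at 3 of 41 carriers, by an interaction term in the edgeR fit. For Slc25a43 the change in SOX9-Halo minus that in SOX9-mEGFP was -5.75 ± 1.09 on the log2 scale (adjusted p = 0.00219), a fitted value that depends on the prior count because SOX9-Halo_spheroid held at most 1 read per library. This carrier passed the mean threshold through SOX9-mEGFP_spheroid alone, so it had to differ there. Leaving out SOX9-Halo_budding replicate 2 ended this call (adjusted p = 0.0134). For Slc25a34 the difference was -5.20 ± 1.00 (adjusted p = 0.00236), fitted against at most 3 reads per SOX9-Halo_spheroid library, and leaving out SOX9-Halo_spheroid replicate 2 ended the call (adjusted p = 0.0114). For Slc25a28 it was 1.38 ± 0.23 (adjusted p = 0.000736); single omissions kept it between 1.29 and 1.47, and it was 0.98 with GC and length trends removed, under the 2-fold threshold. The lines also differed in their H2B transgene, and no cause was tested.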

How the results depend on the processing

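No result changed direction under any alternative. Scaling by library sizes alone gave 5 carriers called lower for SOX9-Halo_spheroid against Halo-NLS, and 1 and 3 called higher for SOX9-Halo_budding and SOX9-mEGFP_budding against Halo-NLS. Without a low-count filter 5 were called higher in each of those budding comparisons and 2 lower in SOX9-Halo_budding, and 2 were called higher in SOX9-Halo_spheroid against SOX9-mEGFP_spheroid. DESeq2 called 2 higher in each of these 3 comparisons. A fold of at least 1.5, or no fold threshold, gave 2 lower in SOX9-Halo_budding, and 1 higher and 2 lower in SOX9-mEGFP_budding. With only the libraries compared, 4 were higher for SOX9-Halo_spheroid and 8 for SOX9-mEGFP_spheroid against Halo-NLS, 2 between the spheroids, and 0 were lower in either budding comparison.

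The following were chosen after seeing the data. With the GC trend removed, 4 were higher and 5 lower for SOX9-Halo_spheroid, 7 higher for SOX9-mEGFP_spheroid and 1 higher for SOX9-mEGFP_budding against Halo-NLS, and 0 higher between the spheroids. With GC and length trends removed, these were 3 higher for SOX9-Halo_spheroid, 1 for SOX9-mEGFP_budding, 0 between the spheroids and 0 for the difference between the lines. Without Halo-NLS replicates 2 and 3 together, 4 were higher and 5 lower for SOX9-Halo_spheroid, 6 and 3 for SOX9-mEGFP_spheroid, and 0 lower in either budding comparison. The cause of these shifts was not tested. Counts in this section are of carriers only, without the share of all tested genes under each alternative.

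With the replicate number as a block, 2 were called higher between the spheroids and 1 for SOX9-mEGFP_budding against Halo-NLS, and no call was lost. The SOX9-Halo budding and spheroid libraries, whose numbers paired, kept the same 8 calls under the block. In the other comparisons some same-numbered libraries deviated together and others did not.

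Leaving out each library in turn gave 4 to 10 higher and 5 to 9 lower for SOX9-Halo_spheroid against Halo-NLS, 7 to 14 and 8 to 9 for SOX9-mEGFP_spheroid, 0 to 6 and 0 to 2 for SOX9-Halo_budding, and 0 to 7 and 0 to 1 for SOX9-mEGFP_budding. The 6 and 7 arose without Halo-NLS replicate 1. Within SOX9-Halo the ranges were 3 to 4 and 3 to 6 (3 without budding replicate 2), and within SOX9-mEGFP 3 to 6 and 2 to 6 (2 without budding replicate 1 or 2 or spheroid replicate 2 or 3). Between the budding organoids they were 0 to 0 and 0 to 1, between the spheroids 1 to 1 and 3 to 3, and for the difference between the lines 1 to 2 (2 without SOX9-Halo_budding replicate 3) and 1 to 2 (1 without SOX9-Halo_budding replicate 2 or SOX9-Halo_spheroid replicate 2). Carriers with 3 reads or fewer in a group, Slc25a34 and Slc25a43 in SOX9-Halo_spheroid, have folds limited by depth.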
